A study of Mus musculus with 21 samples.

Results

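Axon guidance genes encode the ligands and receptors by which cells attract, repel or hold on to each other, and they were measured here in mouse pluripotent cells and in the early embryo. The genes examined were ephrins and Eph receptors, semaphorins with their plexin and neuropilin receptors, netrins with their receptors, and slits with their Robo receptors. They were taken from the table by gene symbol alone, whatever their values, and came to 68 of 33861 genes. These were 8 ephrins, 14 Eph receptors, 20 semaphorins, 11 plexins and neuropilins, 8 netrins and netrin receptors, and 7 slits and Robo receptors.

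RNA was sequenced from 21 mouse samples in 6 groups. FS cells (6 samples), called formative stem cells in the labels, were grown in the A3XR medium and came from 2 lines, with passages 10, 11 and 18 of line 1 and passages 12, 13 and 16 of line 2. The 3 AF and 3 AFX samples are labelled EpiSCs, epiblast stem cells, a cultured counterpart of the epiblast after implantation. Both carry the name E14, a mouse embryonic stem cell line, both were collected at passages 14, 15 and 16, and they were grown in the AF and AFX media. Each cultured sample held 1000 cells. The other 9 samples were single epiblasts, the embryonic tissue that gives rise to the body, at E5.0 (embryos 1, 2 and 4), E5.5 (embryos 1 to 3) and E6.0 (embryos 1 to 3). Titles place the oldest embryos at E6.0, the name used here, and another field places them at E6.5. No genotype, strain, sex or batch was stated. FS differ from AF and AFX in line and medium together, passages of a line are not separate derivations, and the small set of lines limits each cultured group as a model. The p-values therefore measure the spread between passages, lines and embryos sampled here, and part of that spread may be technical.

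Ephrins are membrane-bound ligands that signal to Eph receptor tyrosine kinases on a touching cell and sort cells into separate domains. Semaphorins act through plexins, with neuropilins as co-receptors for the secreted class 3 members, and mostly cause cells and growth cones to withdraw. Netrins attract through Dcc and Neo1 and repel through Unc5 receptors, while slits repel through Robo receptors. Outside the nervous system the same families shape epithelia, vessels and the cell movements of gastrulation.

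Library totals ran from 5827093 to 15916800 counts, and the guidance genes took between 0.141% and 0.227% of them. Levels are in CPM, counts divided by the scaled library total, and 3 counts, used as the detection floor, were 0.171 to 0.561 CPM depending on the library. For FS the lowest, median and highest of 6 samples are given, and for the other groups the samples in order of passage or embryo number. All 7 genes of the epiblast identity list (Pou5f1, Sox2, Otx2, Fgf5, Dnmt3b, Utf1 and Tdgf1) were above a mean of 1 CPM in every group. In these bulk samples fewer cells of a type and less RNA per cell cannot be told apart.

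Promoter sequences are shown for 4 members that were lower in FS than in AF cells and hold the letters CTTTGA or their reverse complement TCAAAG, the core bound by TCF/LEF factors, which carry Wnt signals to DNA. They were picked after the values were seen, and capitals mark the match. Each runs 5′ to 3′ on the plus strand, from 250 bases before to 50 after a RefSeq start (GRCm38.p6). The windows are chr4:141300971-141301270 for Epha2, chr1:62703067-62703366 for Nrp2, chr5:14025026-14025325 for Sema3e and chr2:124089719-124090018 for Sema6d.
Epha2: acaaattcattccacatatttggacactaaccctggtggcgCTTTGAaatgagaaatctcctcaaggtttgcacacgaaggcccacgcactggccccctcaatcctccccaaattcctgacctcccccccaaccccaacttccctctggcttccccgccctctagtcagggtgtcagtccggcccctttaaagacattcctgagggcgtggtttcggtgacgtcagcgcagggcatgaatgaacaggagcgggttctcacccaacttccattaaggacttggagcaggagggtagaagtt
Nrp2: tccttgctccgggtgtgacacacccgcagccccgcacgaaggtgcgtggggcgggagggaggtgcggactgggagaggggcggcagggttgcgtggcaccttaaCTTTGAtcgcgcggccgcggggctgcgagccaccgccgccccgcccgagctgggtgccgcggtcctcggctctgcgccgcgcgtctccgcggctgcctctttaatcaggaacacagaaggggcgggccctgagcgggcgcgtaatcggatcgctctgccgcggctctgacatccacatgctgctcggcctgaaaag
Sema3e: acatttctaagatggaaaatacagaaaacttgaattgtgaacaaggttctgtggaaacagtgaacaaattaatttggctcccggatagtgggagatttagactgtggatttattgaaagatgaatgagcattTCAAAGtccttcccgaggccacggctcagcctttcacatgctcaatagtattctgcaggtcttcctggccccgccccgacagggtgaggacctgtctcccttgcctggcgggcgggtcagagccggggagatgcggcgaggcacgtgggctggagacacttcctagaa
Sema6d: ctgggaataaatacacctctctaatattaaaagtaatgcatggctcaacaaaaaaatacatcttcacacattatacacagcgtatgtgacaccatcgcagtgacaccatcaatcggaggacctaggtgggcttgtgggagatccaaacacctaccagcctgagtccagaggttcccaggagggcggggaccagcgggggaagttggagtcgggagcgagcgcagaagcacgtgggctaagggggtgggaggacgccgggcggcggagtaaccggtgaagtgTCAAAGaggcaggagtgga
RefSeq promoters were found for 58 of the 68 members, 74 windows in all. CTTTGA was present on either strand in 5 of the 74 windows (6.76%), the remaining window being that of Robo4, against 16.003% of 32851 mouse promoters of the same length. The GC box GGGCGG was present in 53 windows (71.6%), against 35.7% of all promoters, and the E box CACGTG in 5 (6.76%), against 7.15%. Both strands were searched, and each motif was counted separately, so a window can hold more than 1 of them. The guidance windows held a median of 20 CpG sites, against 7 in all promoters, and a median GC content of 64.3% against 52.7%. These matches describe the windows only. In the GENCODE M21 annotation (GRCm38), from which gene coordinates below are taken, all 68 members were found, and their loci were long, with a median of 62.8 kb against 21.2 kb for 18688 protein-coding genes of the table. Exon lengths had medians of 6.93 and 3.87 kb.

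Most of the families were present in every group. A mean of at least 1 CPM was reached by 56 of the 68 genes in FS, 60 in AF, 58 in AFX, 48 at E5.0, 51 at E5.5 and 50 at E6.0, and by 64 in at least 1 group. The 4 that stayed below it everywhere were Plxnb3, a plexin with a single count in the whole series, Epha6, Sema3g and Unc5d. Epha6, Sema3g, Plxnb3 and the netrin receptor gene Dcc were too sparse to be tested in any comparison. Per kilobase of exon, which allows genes to be compared, Plxna1 was the highest member in FS at 31.03 CPM per kb, ahead of Plxnb2 at 24.00 and Ephb4 at 17.4. Epha2 led in AF at 33.4 CPM per kb, Plxnb2 in AFX at 33.5, Plxna1 at E5.0 and E5.5 at 30.6 and 41.6, and Sema6a at E6.0 at 34.9. Unc5b, a netrin receptor, was the third at E5.0, the second at E5.5 and the third at E6.0, with 24.3, 24.3 and 24.1 CPM per kb.

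**Figure D1:**
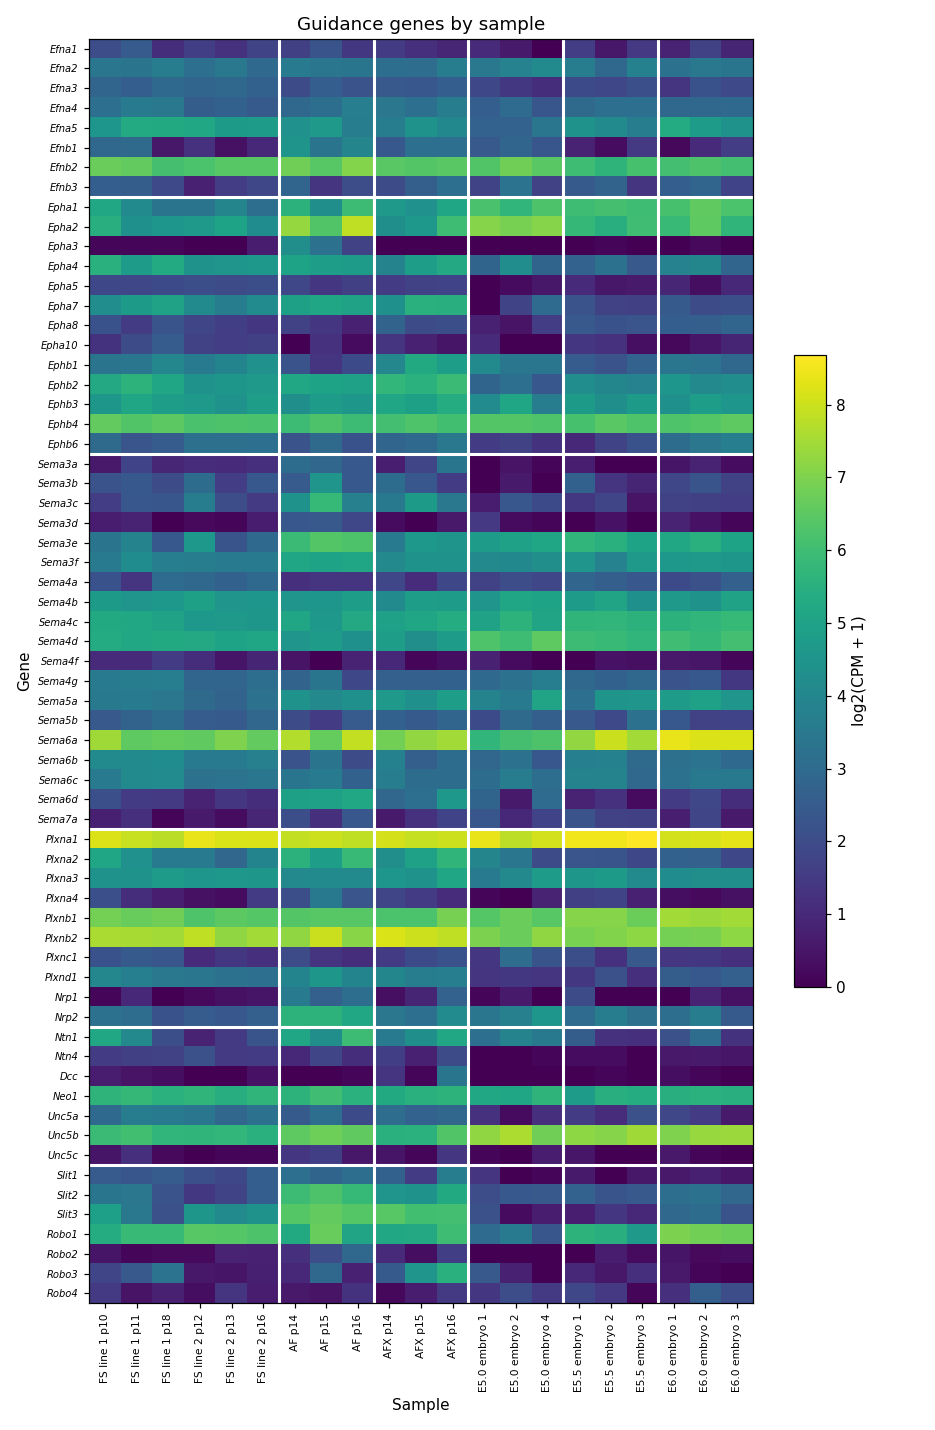
Level of each guidance gene that reached a mean of 1 CPM in at least 1 group (64 rows, ordered by family) in each of the 21 samples (columns), as log2(CPM + 1) on the colour scale. White lines part the families and the groups. Plxna1, Plxnb2, Sema6a, Ephb4 and Efnb2 are bright in every column, and the Slit2 and Slit3 rows are brighter in the AF and AFX columns than in the epiblast columns.

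FS and AF cells were compared to ask how guidance genes differ between formative cells and epiblast stem cells. More members were lower in FS than higher: 5 of the 6 secreted class 3 semaphorins tested, both neuropilins, Slit2, Slit3 and Epha2 were lower, and Ephb1, Sema4a and Sema6b were higher. Of the 64 members tested, 27 passed an adjusted p of 0.05 (edgeR quasi-likelihood test), 6 higher and 21 lower in FS, which is 42.2% of those tested, against 19.5% of all 16052 genes. In all genes tested, 8.86% were higher and 10.6% lower. The median log2 fold change was -0.10 for the members and 0.02 for all genes, and the median absolute change was 0.76 against 0.32. With FS line 1 alone 17 members passed, and the calls of Efnb1, Epha1, Epha10, Plxna2, Plxna3, Plxna4, Plxnd1, Sema3a, Sema4a and Sema7a were lost. Between 19 and 30 passed when each sample was left out in turn, with 19 without AF passage 14.

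Slit2, Slit3 and the receptor gene Robo2 showed some of the widest gaps, and 1 of the 4 Robo receptors tested passed. Slit2 (ENSMUSG00000031558, chr5:47983138-48307733, plus strand), a secreted repellent, was at 1.68, 4.34 and 9.93 CPM in FS, 61.3, 75.5 and 54.9 in AF and 22.04, 21.2 and 37.3 in AFX. Every FS sample was below every AF and AFX sample. Its log2 fold change in FS against AF was -3.600 ± 0.43 (SE, edgeR adjusted p = 0.000179), and with FS line 2 alone it was -4.34. Slit3 (ENSMUSG00000056427, chr11:35121224-35708507, plus strand) was at 3.41, 18.6 and 28.6 CPM in FS, 82.3, 96.8 and 83.6 in AF and 84.5, 64.7 and 66.5 in AFX. FS samples were again the lowest with no overlap, while AF and AFX overlapped. The change against AF was -2.36 ± 0.42 (SE, edgeR adjusted p = 0.00265). Slit1 was at 2.71, 4.28 and 5.03 CPM in FS and 7.91, 6.03 and 7.85 in AF, groups that did not overlap, but its difference did not pass at -0.83 ± 0.38 (SE, edgeR adjusted p = 0.151). Of the receptors, Robo2 was at 0.1197, 0.281 and 0.833 CPM in FS and 1.24, 3.15 and 6.45 in AF, with a change of -3.104 ± 0.65 (SE, edgeR adjusted p = 0.00368). All 3 AF samples were above every FS sample, and the change was -2.400 without AF passage 16 and -3.93 with FS line 1 alone. Robo1, the most abundant Robo receptor by CPM, was at 40.6, 67.2 and 84.1 CPM in FS, 38.1, 100.2 and 32.2 in AF and 34.9, 36.9 and 62.8 in AFX. Its groups overlapped and AF passage 15 was above all FS samples.

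Class 3 semaphorins, which are secreted and bind neuropilins, were lower in FS than in AF for Sema3a, Sema3c, Sema3d, Sema3e and Sema3f. Sema3e (ENSMUSG00000063531, chr5:14025276-14256689, plus strand), which can signal through Plxnd1 without a neuropilin, was at 3.75, 7.96 and 23.6 CPM in FS, 58.8, 80.8 and 75.8 in AF and 11.2, 23.9 and 21.5 in AFX. The AF samples stood apart, and FS and AFX overlapped. The change in FS against AF was -2.81 ± 0.48 (SE, edgeR adjusted p = 0.00194). Sema3c was at 1.77, 3.55 and 11.9 CPM in FS and 21.1, 54.9 and 12.7 in AF, with AF passage 15 far above the other AF samples. Its change was -2.71 ± 0.61 (SE, edgeR adjusted p = 0.00931), but -1.92 without AF passage 15, where the call was lost, and -3.32 without FS line 2 passage 12. Sema3a was at 0.501, 1.08 and 2.39 CPM in FS and 7.41, 6.21 and 4.205 in AF, a change of -2.29 ± 0.59 (SE, edgeR adjusted p = 0.0138) that was lost without AF passage 14 at -2.11. Sema3f differed less in size but with little spread, at 10.6, 11.4 and 17.8 CPM in FS, 34.4, 31.6 and 34.1 in AF and 16.1, 21.1 and 20.4 in AFX. AF was the highest of the 3 groups without overlap, FS line 1 passage 11 lay within the AFX range and the other FS samples below it, and the change against AF was -1.43 ± 0.17 (SE, edgeR adjusted p = 4.29e-05). Sema3d, at most 0.838 CPM in FS and 4.08, 4.41 and 2.62 CPM in AF, changed by -3.28 ± 0.68 (SE, edgeR adjusted p = 0.00336). Sema3b was at 1.98, 3.95 and 7.296 CPM in FS and 4.57, 22.03 and 4.298 in AF and did not pass.

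The membrane-bound semaphorins moved in both directions. Sema6d (ENSMUSG00000027200, chr2:124089969-124667770, plus strand), a transmembrane ligand of class A plexins, was at 0.802, 1.67 and 3.31 CPM in FS, 29.5, 29.9 and 35.6 in AF and 6.29, 7.98 and 23.8 in AFX. AFX lay between the other groups with no overlap on either side. The change in FS against AF was -4.19 ± 0.41 (SE, edgeR adjusted p = 2.01e-05). Sema5a was at 5.83, 9.33 and 11.01 CPM in FS, 20.8, 16.01 and 19.4 in AF and 25.1, 19.7 and 28.1 in AFX, with FS below both, and changed by -1.09 ± 0.20 (SE, edgeR adjusted p = 0.00131). Sema7a, a lipid-anchored member, was at 0.0811, 0.631 and 1.32 CPM in FS and 3.21, 1.26 and 4.11 in AF, overlapping ranges, and changed by -2.18 ± 0.62 (SE, edgeR adjusted p = 0.0226), a call lost without AF passage 14 (-2.08) or passage 16 (-1.81). In the opposite direction, Sema6b was at 10.9, 14.5 and 17.4 CPM in FS and 3.71, 9.08 and 2.99 in AF. No FS sample fell to the AF range, and the change was 1.42 ± 0.36 (SE, edgeR adjusted p = 0.0127). It was lost without AF passage 14 (1.23) or 16 (1.12) and rose to 2.08 without passage 15. Sema4a was at 1.56, 5.92 and 7.22 CPM in FS and 1.24, 1.53 and 1.495 in AF, a change of 1.87 ± 0.46 (SE, edgeR adjusted p = 0.00967). Sema4d, which binds Plxnb1, was at 31.8, 36.2 and 39.9 CPM in FS, 22.00, 26.5 and 19.5 in AF and 27.9, 18.4 and 26.2 in AFX, with FS above both, and changed by 0.66 ± 0.15 (SE, edgeR adjusted p = 0.00545).

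Neuropilins, the co-receptors of class 3 semaphorins, were lower in FS too. Nrp2 (ENSMUSG00000025969, chr1:62703285-62818695, plus strand) was at 3.57, 5.02 and 8.71 CPM in FS, 47.8, 48.5 and 35.8 in AF and 9.94, 8.103 and 17.3 in AFX. The lowest AF sample was above every sample of the other cultured groups. Its change in FS against AF was -2.96 ± 0.27 (SE, edgeR adjusted p = 5.38e-06). Nrp1 was at 0, 0.236 and 0.958 CPM in FS, 10.9, 5.396 and 7.85 in AF and 0.2705, 0.873 and 5.58 in AFX, where passage 16 was within the AF range and the other passages within the FS range. The FS change against AF was -4.67 ± 0.81 (SE, edgeR adjusted p = 0.00136). Among plexins, Plxna4 was at 0.208, 0.923 and 3.31 CPM in FS and 3.21, 10.3 and 3.83 in AF, and its change of -2.202 ± 0.62 (SE, edgeR adjusted p = 0.0217) was lost without AF passage 15 (-1.497). Plxna2, Plxnd1 and Plxna3 passed with changes of -1.46 ± 0.45, -0.67 ± 0.22 and 0.49 ± 0.16 (SE). Plxna2 lost its call without AF passage 14 or 16 or FS passage 12, 13, 16 or 18 (lowest size -1.23, without AF passage 16), Plxnd1 without AF passage 15 (-0.40) or FS passage 12, 13, 16 or 18, and Plxna3 without any AF sample or FS passage 12, 13, 16 or 18 (0.43 to 0.49). The 3 plexins with the highest CPM did not pass: Plxna1 averaged 281 ± 41.2 CPM in FS and 241 ± 13.4 in AF, Plxnb2 185 ± 26.9 and 182 ± 62.4, and Plxnb1 96.3 ± 15.2 and 83.9 ± 2.12 (mean ± SD, n = 6 and 3).

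Eph receptors divided between higher and lower. Epha2 (ENSMUSG00000006445, chr4:141301240-141329384, plus strand) was at 17.7, 23.7 and 42.8 CPM in FS, 158, 79.1 and 230.4 in AF and 18.8, 23.7 and 62.8 in AFX. AF samples were the highest, with AF passage 15 well below the other AF passages and no FS sample reaching it. The change in FS against AF was -2.56 ± 0.42 (SE, edgeR adjusted p = 0.00172). Epha3 had almost no counts outside AF, at 0, 0.0907 and 0.628 CPM in FS, 18.4, 8.45 and 2.24 in AF and none in AFX. Its fitted change was -5.63 ± 0.81 (SE, edgeR adjusted p = 0.00057), and moved to -4.81 without AF passage 14 and -7.13 without FS line 2 passage 16, and was -6.46 with FS line 1 alone. Ephb1 (ENSMUSG00000032537, chr9:101922128-102354693, minus strand) went the other way, at 9.01, 12.7 and 19.9 CPM in FS, 3.71, 1.53 and 2.897 in AF and 15.3, 37.4 and 27.2 in AFX. AF was below both other groups with no overlap. The change was 2.31 ± 0.38 (SE, edgeR adjusted p = 0.000731). Epha1 (change -1.48 ± 0.47, SE) and Epha10 (2.24 ± 0.74, SE) also passed. Epha1 was at 7.88, 11.8 and 35.4 CPM in FS and 46.8, 19.2 and 61.6 in AF, with AF passage 15 inside the FS range. Epha1 lost its call without AF passage 14 or 16 or FS passage 11, 12, 13, 16 or 18 (down to -1.12), and Epha10 without AF passage 14 or 16 or FS passage 11, 12, 13, 16 or 18 (down to 1.73), while without AF passage 15 the Epha10 change was 4.48. Ephb4 and Ephb3, with means of 80.7 ± 9.73 and 26.5 ± 4.84 CPM in FS and 65.7 ± 8.796 and 22.8 ± 3.59 in AF (SD, n = 6 and 3), did not pass.

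Of the ephrin ligands, Efnb1 alone passed between FS and AF. It was at 0.313, 1.17 and 7.06 CPM in FS and 21.5, 9.17 and 14.5 in AF, with FS line 1 passages 10 and 11 above the other FS samples, and changed by -2.48 ± 0.76 (SE, edgeR adjusted p = 0.0408). The call was lost without any AF sample or FS passage 12, 13, 16 or 18, at -2.13 to -2.75, and with FS line 1 alone, where the change was -1.71, while it was -4.03 with FS line 2 alone. Efnb2, the ephrin with the highest CPM, was at 68.9, 85.1 and 102 CPM in FS and 111, 84.4 and 135 in AF, and these ranges overlapped. Netrin genes gave 1 call: Unc5b, a repulsive netrin receptor, was at 44.8, 52.3 and 65.8 CPM in FS and 90.7, 107 and 93.9 in AF, which did not overlap, and changed by -0.84 ± 0.17 (SE, edgeR adjusted p = 0.00275). Ntn1, the main secreted netrin, was at 0.802, 3.54 and 35.2 CPM in FS and 34.6, 18.7 and 60.3 in AF and did not pass (-1.93 ± 0.97 (SE, edgeR adjusted p = 0.201)). Its FS values ranged widely, with line 1 passage 10 inside the AF range.

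**Figure D2:**
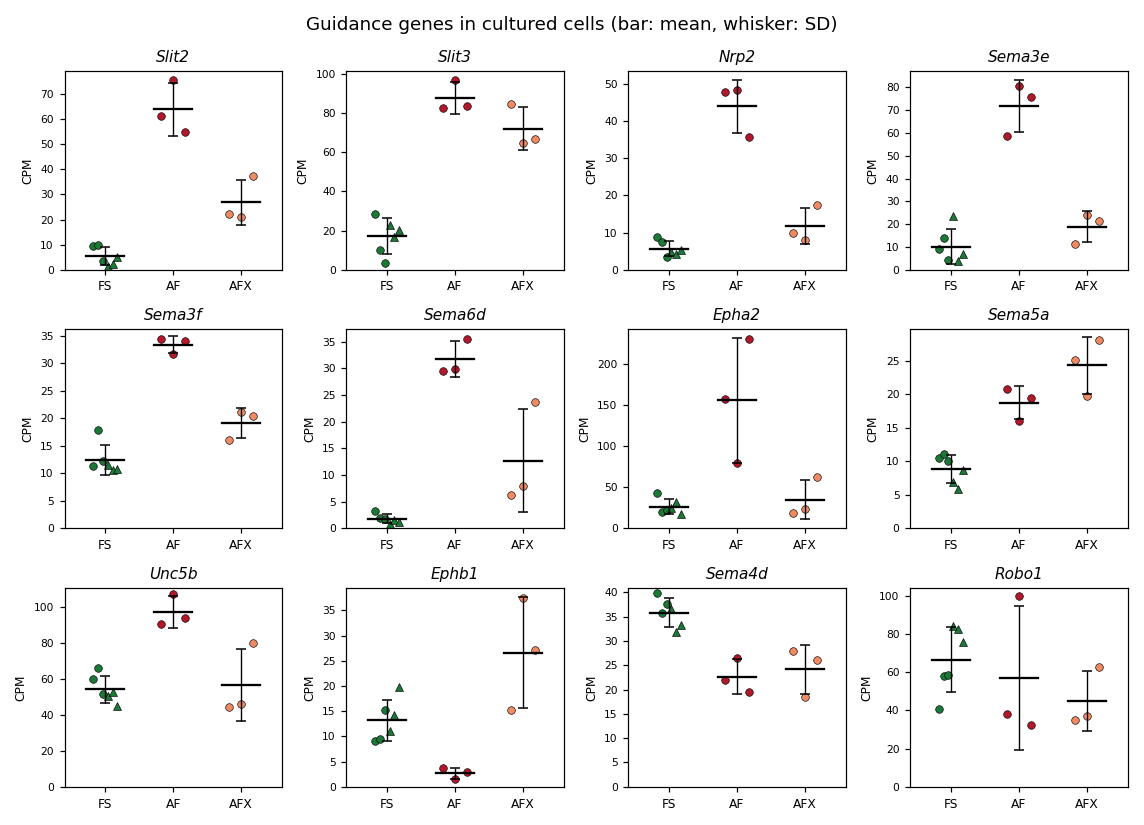
Level in CPM (vertical axes, linear, from 0) of 12 guidance genes in each FS, AF and AFX sample. Points are samples (triangles mark FS line 2, circles FS line 1 and the other groups), horizontal bars are group means and whiskers SD. Slit2, Nrp2, Sema3e and Epha2 are high in AF and low in FS, Slit3 and Sema5a are high in both AF and AFX, Ephb1 is low in AF, and the Robo1 groups overlap.

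Other genes of the guidance pathway were read from a list of 52 further ligands, co-receptors and cytoplasmic effectors, of which 51 were in the table and 48 were tested. Between FS and AF 19 passed (39.6%, against 19.5% of all genes), 9 higher and 10 lower in FS. Flrt2 and Flrt3, adhesion ligands of Unc5 receptors, were at 1.203 ± 0.8103 and 3.08 ± 0.997 CPM in FS and 13.8 ± 0.9501 and 18.3 ± 3.27 in AF (SD, n = 6 and 3). Their changes were -3.47 ± 0.61 and -2.57 ± 0.32 (SE), in the direction opposite to Flrt1 (2.44 ± 0.64). Draxin, a secreted ligand that binds netrins and Dcc, had a log2 change of 2.51 ± 0.57, and Dpysl4, an effector of semaphorin signals, of 1.59 ± 0.41, both higher in FS.

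AF cells also differed from FS cells in marker genes of other cell types. The summed level of the 9 genes of the fibroblast or feeder list was 15.6 to 45.8 CPM in FS, 222 to 265 in AF, 32.2 to 56.2 in AFX and 11.2 to 24.9 in epiblasts. Of the 8 tested between FS and AF 7 were lower in FS, and Lum had no count in FS. The sum over the 10 genes of the primitive streak and mesoderm list was 34.3 to 130 CPM in FS, 374 to 868 in AF and 77.8 to 216 in AFX, with 6 of 9 tested genes lower in FS than in AF and none listed at 0 in these groups. Endothelial genes, a usual source of neuropilin and Robo4 RNA, summed to 2.30 to 5.85 CPM in FS, 3.51 to 14.5 in AF and 3.11 to 5.36 in AFX, with Tie1 at 0 in AF and AFX and Emcn at 0 in FS and AFX. Of the 3 endothelial genes tested between FS and AF 1 was lower in FS. The visceral endoderm list summed to 7.54 to 47.6 CPM in FS, 78.1 to 117 in AF and 11.2 to 29.3 in AFX. Of these genes 3 of 4 tested were lower in FS than in AF, and Afp was at 0 in all 3 groups. Its sum in epiblasts was 328 to 865 CPM at E5.0, 137 to 164 at E5.5 and 95.9 to 116 at E6.0, so AF was not the highest. The extraembryonic ectoderm list summed to 30.2 to 57.1 CPM in FS, 79.9 to 161 in AF and 43.6 to 82.4 in AFX, with 4 of 5 tested lower in FS than in AF. In epiblasts this sum was 47.0 to 98.7 CPM at E5.0, 24.0 to 51.7 at E5.5 and 73.95 to 195 at E6.0, and AF overlapped E5.0, E6.0 and AFX. Elf5 had no count in AF or AFX and Cdx2 none in AFX, and Eomes is counted in the primitive streak list as well. The part of these markers in the guidance gene differences was not tested.

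Between FS and AFX, groups that again differ in line as well as medium, fewer members differed. Sema6d, Slit2, Slit3, Sema5a, Nrp2, Ephb2 and Sema3f were lower in FS, and Efna5 and Sema4d were higher. That is 9 of 64 members tested (14.1%), against 8.70% of all 16052 genes, of which 3.78% were higher and 4.92% lower. The count was 16 with the DESeq2 Wald test, 15 with FS line 2 alone and 4 with FS line 1 alone. It was 4 without AFX passage 16. FS is shared with the comparison above, so the values of each are given side by side rather than related. Slit2 changed by -2.36 ± 0.44 (SE, edgeR adjusted p = 0.00573), Slit3 by -2.08 ± 0.42 (SE, edgeR adjusted p = 0.0108) and Sema5a by -1.47 ± 0.19 (SE, edgeR adjusted p = 0.000215), from the sample values above, in none of which FS and AFX overlapped, and Slit2 by -3.100 with FS line 2 alone. Sema6d changed by -2.88 ± 0.42 (SE, edgeR adjusted p = 0.00074), with AFX passage 16 the highest of its group, and by -2.04 without that passage. These 4 calls held in every alternative run. Nrp2 changed by -1.08 ± 0.28 (SE, edgeR adjusted p = 0.0253), its ranges overlapped, and its call was lost without AFX passage 16 (-0.70) or FS passage 12, 13 or 16.

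Efna5, an ephrin-A ligand, was at 22.4, 31.3 and 38.8 CPM in FS, 20.1, 24.4 and 11.6 in AF and 11.4, 20.4 and 15.6 in AFX. FS lay above AFX without overlap and overlapped AF. It changed by 0.98 ± 0.26 (SE, edgeR adjusted p = 0.029) against AFX, a call lost without AFX passage 14 (0.79) or 16 or FS passage 12 or 18. Sema4d changed by 0.56 ± 0.15 (SE, edgeR adjusted p = 0.0264), lost without AFX passage 15 (0.41) or 16 or FS passage 10. Ephb2, a receptor for B ephrins, was at 20.7, 29.5 and 48.1 CPM in FS and 52.7, 45.7 and 59.5 in AFX, groups that overlapped, with a change of -0.76 ± 0.22 (SE, edgeR adjusted p = 0.045). That call held only without FS line 1 passage 10 or 11 among the samples left out, and was -0.66 without AFX passage 16. Sema3f changed by -0.64 ± 0.17 (SE, edgeR adjusted p = 0.0287), lost without AFX passage 15 (-0.57) or 16 or FS passage 12, 13 or 16. In the pathway list 3 of 48 passed (6.25%, against 8.70% of all genes), 1 higher and 2 lower in FS. Of the 8 fibroblast or feeder genes tested 4 were lower in FS than in AFX, and their part in these differences was not tested.

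The E14 cells in AFX medium were compared with those in AF medium, collected at the same passages. Epha3, Sema3d, Epha2, Nrp2, Sema3f and Unc5b were lower in AFX, and Ephb1 and Plxna3 were higher. That is 8 of 64 members (12.5%), against 8.73% of all 16052 genes, with 4.30% higher and 4.42% lower. DESeq2 gave 13. The count was 3 without AFX passage 14 and 5 without AF passage 14, AF passage 16 or AFX passage 15. Ephb1, with every AFX sample above every AF sample, changed by 3.32 ± 0.41 (SE, edgeR adjusted p = 0.000444). Nrp2 changed by -1.88 ± 0.32 (SE, edgeR adjusted p = 0.00302). Epha3 had no count in AFX and was at least 35.2-fold lower, taking 3 counts per sample as the floor (edgeR adjusted p = 0.00388). Without AF passage 14 that bound was 19.4-fold, and its fitted log2 change moved from -9.77 to -8.95 without AF passage 14. These 3 genes kept their calls in every alternative.

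The other AFX calls were lost in some alternatives. Epha2 changed by -2.14 ± 0.52 (SE, edgeR adjusted p = 0.0291), a call lost without AF passage 14 or 16 or AFX passage 14 or 15 (-1.76 without AF passage 16), and by -2.87 without AFX passage 16. Sema3d, at 4.08, 4.41 and 2.62 CPM in AF and at most 0.500 CPM in AFX, changed by -3.81 ± 0.90 (SE, edgeR adjusted p = 0.0165). It was lost without AFX passage 14 (-3.67) or 15 (-3.38) and -4.77 without passage 16. Sema3f changed by -0.79 ± 0.20 (SE) and was lost without AF passage 14 or 16 or AFX passage 14 (-0.68) or 15. Unc5b changed by -0.77 ± 0.20 (SE) and was lost without AF passage 15 or AFX passage 14 (-0.62) or 15, or with AF and AFX fitted alone. Plxna3 changed by 0.65 ± 0.18 (SE) and was lost without any AF sample or AFX passage 14 or 16 (0.40), or with these groups alone. Slit2 at -1.24 ± 0.50 (SE, edgeR adjusted p = 0.167), Sema3e at -1.93 ± 0.59 (0.0699) and Sema6d at -1.31 ± 0.45 (0.0992) did not pass, although AFX lay below AF without overlap in each. Of the pathway list 13 of 48 passed (27.1%, against 8.73% of all genes), 8 higher and 5 lower in AFX. Of the fibroblast or feeder genes 6 of 8 were lower and 1 was higher in AFX than in AF. Of the visceral endoderm genes 2 of 4, of the extraembryonic ectoderm genes 2 of 5 and of the primitive streak genes 1 of 9 were lower in AFX, with the summed levels given above. The part of these markers in the differences was not tested.

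The 2 FS lines differed in 2 of 64 members (3.12%), against 3.85% of all 16052 genes, with 2.65% higher and 1.20% lower in line 2. Ephb2 was at 37.2, 48.1 and 34.5 CPM in line 1 and 20.7, 23.3 and 24.6 in line 2, with no overlap, a change of -0.81 ± 0.15 (SE, edgeR adjusted p = 0.00698). Plxnc1, a receptor of Sema7a, was at 3.61, 4.55 and 4.06 CPM in line 1 and 1.04, 1.67 and 1.31 in line 2, a change of -1.61 ± 0.41 (SE, edgeR adjusted p = 0.0423). It lost its call without any of the FS passages 10, 11, 12, 13, 16 or 18 (-1.78 to -1.46). The count of members was 1 without FS passage 11, 12, 13 or 16 and 4 without passage 18. It was 13 with no filter, 10 with the FS samples alone and 6 with DESeq2. Rgma and Fes of the pathway list were lower in line 2, by -2.24 ± 0.45 and -1.78 ± 0.41 (SE) on the log2 scale. Rgma, a ligand of Neo1, was at 38.3, 29.3 and 14.4 CPM in line 1 and 3.37, 3.13 and 10.2 in line 2. Of the marker lists, 1 of 8 fibroblast or feeder genes and 1 of 4 visceral endoderm genes were lower in line 2.

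In the embryo, E6.0 and E5.0 epiblasts were compared to see how guidance genes differ between these stages. Robo1, Sema6a, Efna5, Ephb2, Ephb6, Epha8, Plxnb1 and Sema3b were higher at E6.0, and Epha2 and Sema4g were lower. Of 51 members tested 10 passed (19.6%), 8 higher and 2 lower, against 21.8% of all 14228 genes, with 10.2% higher and 11.6% lower. The share is thus close to that of all genes. The median log2 fold change was 0.09 for the members and -0.02 for all genes. Leaving out each E5.0 or E6.0 sample in turn gave 9 to 12.

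Robo1 (ENSMUSG00000022883, chr16:72308306-73046095, plus strand), a slit receptor, was at 7.11, 10.7 and 4.02 CPM at E5.0, 48.4, 43.6 and 24.9 at E5.5 and 125, 114 and 106 at E6.0. The stages did not overlap and stood in order of age. The change from E5.0 to E6.0 was 3.95 ± 0.35 (SE, edgeR adjusted p = 2.33e-05). Its ligands were low in these samples, and Slit2 was at 3.19, 4.300 and 4.37, 5.71, 3.78 and 4.41 and 7.88, 8.43 and 6.28 CPM at the 3 stages. Slit3 was at 3.43, 0.187 and 0.591, 0.671, 1.602 and 0.937 and 6.43, 7.46 and 3.68 CPM, highest at E6.0 without overlap, but did not pass (1.95 ± 0.77 (SE, edgeR adjusted p = 0.0863)). Slit1 was at most 1.47 CPM in any epiblast.

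Sema6a, a transmembrane ligand of Plxna2 and Plxna4, was at 51.9, 68.6 and 75.7 CPM at E5.0, 152, 253 and 175 at E5.5 and 333, 299 and 289 at E6.0. Its stages too stood in order of age without overlap, and the change was 2.16 ± 0.19 (SE, edgeR adjusted p = 1.04e-05). Plxnb1, a receptor for Sema4d, was at 82.9, 102 and 84.8, 137, 135 and 106 and 178, 166 and 179 CPM. Again the stages were in order without overlap, with a change of 0.89 ± 0.14 (SE, edgeR adjusted p = 0.000422). Sema3b had 3 counts over the E5.0 samples and was at 2.63, 3.78 and 2.27 CPM at E6.0, and the ratio of 84 counts to 3, scaled to the libraries, was 21.8 (exact 95% interval 7.201 to 108, counting error only, and edgeR adjusted p = 0.0239). That call was lost without E5.0 embryo 1 or 4 or E6.0 embryo 1 or 2 (fitted change 3.46 to 4.14, from 4.08), and the fitted change was 7.72 without E5.0 embryo 2. Sema4g was at 6.75, 8.599 and 12.2, 6.600, 5.49 and 6.37 and 3.68, 4.302 and 1.62 CPM, and its fall of -1.58 ± 0.41 (SE, edgeR adjusted p = 0.0148) was lost without E5.0 embryo 4 (-1.31) or E6.0 embryo 3 (-1.24). Plxna1, the plexin with the highest CPM, was at 337, 222 and 271, 364, 357 and 409 and 272, 286 and 323 CPM and its first and last stages overlapped.

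Genes on both sides of the ephrin and Eph pair were among the higher ones. Efna5 was at 5.64, 5.61 and 9.69 CPM at E5.0, 21.1, 16.8 and 11.7 at E5.5 and 39.9, 26.3 and 20.4 at E6.0, where E5.5 and E6.0 overlapped. It changed by 1.97 ± 0.33 (SE, edgeR adjusted p = 0.000918). Ephb2 was at 5.89, 8.04 and 4.14, 18.01, 14.99 and 13.4 and 22.6, 16.1 and 17.97 CPM, with E5.0 below both later stages, and changed by 1.59 ± 0.30 (SE, edgeR adjusted p = 0.00209). Ephb6, a receptor without kinase activity, was at 1.84, 2.24 and 1.42, 1.01, 2.403 and 3.56 and 7.35, 9.75 and 12.1 CPM. Here E6.0 stood above both earlier stages, and the change was 2.35 ± 0.50 (SE, edgeR adjusted p = 0.00418). Epha8 was at 0.736, 0.374 and 2.01, 4.36, 3.55 and 3.94 and 4.99, 5.18 and 6.06 CPM, a change of 2.25 ± 0.56 (SE, edgeR adjusted p = 0.0114) that was 3.14 without E5.0 embryo 4. Epha2 went down after E5.0, at 137, 117 and 137, 53.7, 44.05 and 63.3 and 58.3, 91.1 and 49.8 CPM. No later sample reached the E5.0 range, and the change to E6.0 was -1.04 ± 0.20 (SE, edgeR adjusted p = 0.00206). Epha1 was at 71.6, 51.2 and 75.9, 62.9, 68.3 and 62.99 and 70.5, 93.6 and 74.3 CPM and did not pass. Netrin receptor Unc5b kept means of 152 ± 42.4, 152 ± 18.5 and 151 ± 20.8 CPM (SD, n = 3 each).

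**Figure D3:**
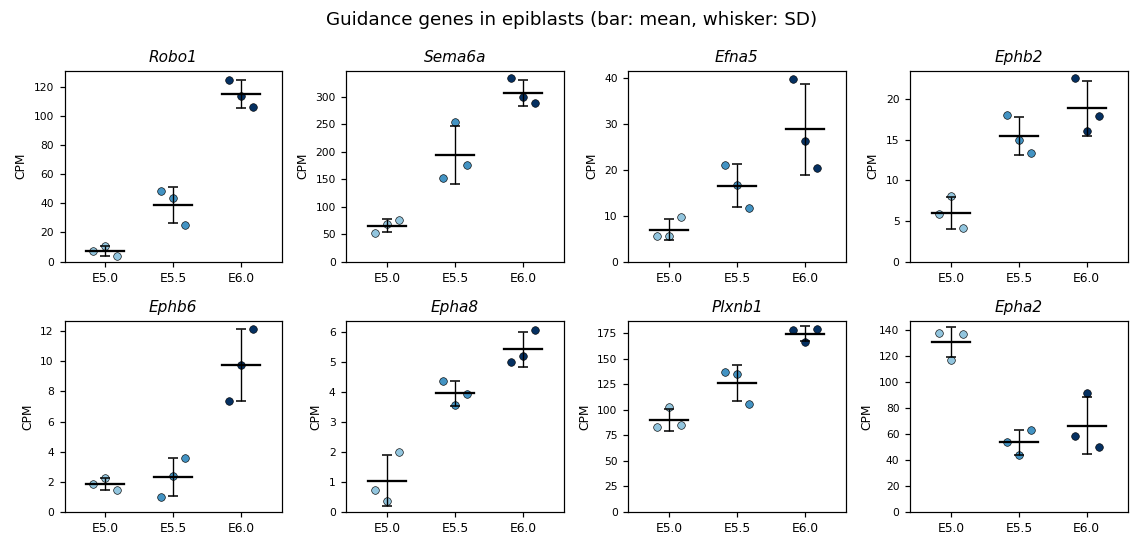
Level in CPM (vertical axes, linear, from 0) of 8 guidance genes in single epiblasts at E5.0, E5.5 and E6.0 (horizontal axis). Points are embryos, horizontal bars are means of 3 embryos and whiskers SD. Robo1, Sema6a, Plxnb1 and Epha8 stand higher at each later stage without overlap, and Epha2 is highest at E5.0.

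Within the pathway list 15 of 44 genes (34.1%, against 21.8% of all genes) passed between E5.0 and E6.0, 14 higher and 1 lower at E6.0. Dpysl2, an effector of Sema3a signals on microtubules, was at 3.803, 1.87 and 5.91 CPM at E5.0, 10.7, 4.46 and 6.09 at E5.5 and 45.7, 53.8 and 45.4 at E6.0. Every E6.0 sample was above every earlier one, and the change was 3.54 ± 0.38 (SE, edgeR adjusted p = 2.85e-05). Ablim1 rose by 2.06 ± 0.48, Dpysl5 by 1.697 ± 0.18 and the kinase gene Fyn by 1.68 ± 0.20 (SE), and the protease gene Adam10, which cuts ephrins, was lower (-0.80 ± 0.21). The summed level of the 11 visceral endoderm genes, a tissue that covers the epiblast, was 328 to 865 CPM at E5.0, 137 to 164 at E5.5 and 95.9 to 116 at E6.0. Of the 9 tested 7 were lower at E6.0, and none of the list was at 0 at any stage. Its part in the stage differences was not tested.

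FS cells were set against E5.5 epiblasts, and then all cultured groups against all epiblasts. These comparisons join 1000 cultured cells with 1 dissected epiblast, so origin and amount of starting material cannot be told apart. Against E5.5, 30 of 64 members passed (46.9%), 18 higher and 12 lower in FS, where 43.8% of all 16614 genes passed (23.0% higher and 20.8% lower). The median log2 fold change was 0.48, or 0.39 with genes at the floor set to their bounds, against 0.08 for all genes. From 23 to 30 members passed when each FS or E5.5 sample was left out. Over all cultured cells against epiblasts 38 of 64 passed (59.4%), 29 higher and 9 lower, where 61.8% of all genes passed (33.9% higher and 27.9% lower). Both shares are near those of all genes.

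All 3 slits were higher over all cultured cells than in epiblasts, and Slit1 and Slit3 also in FS against E5.5. Slit3 changed by 3.99 ± 0.68 (SE, edgeR adjusted p = 0.000179) in FS against E5.5 and by 4.47 ± 0.39 (SE, edgeR adjusted p = 3.58e-08) in all cultured cells against epiblasts. FS and E5.5 did not overlap, while over all samples the lowest FS sample, line 1 passage 18 at 3.41 CPM, lay below the 3 E6.0 embryos and E5.0 embryo 1. Slit1 was at 2.71, 4.28 and 5.03 CPM in FS and 0.559, 0 and 0.469 at E5.5, a change of 3.498 ± 0.75 (SE, edgeR adjusted p = 0.000648). Against all epiblasts it was 3.53 ± 0.44 (SE, edgeR adjusted p = 3.54e-07), and 4.44 without E5.0 embryo 1. Slit2 did not pass against E5.5 but passed in the wider comparison (1.996 ± 0.26 (SE, edgeR adjusted p = 1.17e-06)), where FS overlapped the epiblasts. Per kilobase of exon, Slit2 was at 0.210, 2.51 and 1.05 CPM in FS, AF and AFX and 0.155, 0.182 and 0.296 at the 3 stages, so FS was below E6.0. Robo2 (3.68 ± 0.73, SE) and Robo3 (3.06 ± 0.82) were higher over all cultured cells and Robo4 was lower (-1.41 ± 0.50). Per kilobase of exon, Robo2 was at 0.0237, 0.213 and 0.0670 CPM in FS, AF and AFX and 0, 0.0149 and 0.0154 at the 3 stages. Robo3 was at 0.420, 0.408 and 3.47 CPM per kb in FS, AF and AFX and 0.251, 0.135 and 0.0298 at the 3 stages. Its FS lines did not overlap, line 1 being the higher. Robo3 moved to 3.86 without E5.0 embryo 1, and Robo4 lost its call without E5.5 embryo 1 (-1.17). Robo1 passed at 0.79 ± 0.24 (SE, edgeR adjusted p = 0.00739) but was 0.10 and did not pass when the samples were treated as 2 groups. Its E6.0 level was above every cultured sample.

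Eph receptors parted by member. Epha7 was at 11.9, 17.8 and 31.4 CPM in FS, 29.8, 33.5 and 30.7 in AF and 19.5, 45.00 and 43.01 in AFX, against 0, 2.43 and 7.21, 3.69, 2.17 and 2.16 and 4.46, 2.99 and 3.25 at the 3 stages. No epiblast reached any cultured sample. It changed by 2.91 ± 0.61 (SE, edgeR adjusted p = 0.000939) in FS against E5.5 and 3.15 ± 0.37 (SE, edgeR adjusted p = 8.99e-07) over all. Epha4 was at 20.8, 25.1 and 44.2 CPM in FS and 5.59, 8.47 and 4.41 at E5.5, with no overlap, a change of 2.25 ± 0.43 (SE, edgeR adjusted p = 0.0003). Ephb1 and Ephb6 were higher in FS than at E5.5 by 1.49 ± 0.33 and 1.51 ± 0.38 (SE), and Ephb2, from the values above, by 1.01 ± 0.23 (SE, edgeR adjusted p = 0.00139). Epha5, lower in level at 2.63, 2.93 and 3.21 CPM in FS and 1.12, 0.458 and 0.562 at E5.5, changed by 2.02 ± 0.54 (SE, edgeR adjusted p = 0.00416) and by 2.24 ± 0.35 (SE, edgeR adjusted p = 1.01e-05) over all, where no epiblast reached a cultured sample. Epha1 was the reverse, at 7.88, 11.8 and 35.4 CPM in FS and 62.9, 68.3 and 62.99 at E5.5. The change was -2.09 ± 0.39 (SE, edgeR adjusted p = 0.000372), and -1.46 ± 0.26 (SE, edgeR adjusted p = 0.00011) over all. Epha2 was lower in FS than at E5.5 by -1.03 ± 0.37 (SE), a call lost without E5.5 embryo 1 or 3 (-0.89) or FS passage 11, 12, 16 or 18.

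Ephrin ligands that passed were all higher in FS or in cultured cells. Efna3 was at 5.03, 6.102 and 6.82 CPM in FS and 2.91, 2.63 and 3.37 at E5.5, which did not overlap, and changed by 1.01 ± 0.32 (SE, edgeR adjusted p = 0.0142), lost without E5.5 embryo 2 (0.89). Efna5 and Efnb2 were higher in FS by 0.91 ± 0.28 and 0.48 ± 0.15 (SE), lost without E5.5 embryo 3 (0.71) and embryo 2 (0.31), respectively. Over all cultured cells 5 of 8 ephrins passed, all of them higher (62.5%, where 61.8% of all genes passed and 33.9% were higher). They were Efnb1 (1.91 ± 0.52, SE), Efna1 (0.99 ± 0.42), Efna3 (0.95 ± 0.21), Efna5 (0.47 ± 0.18) and Efnb2 (0.33 ± 0.10). The mean of Efnb1 in FS (2.78 CPM) was below that at E5.0 (4.87) and above those at E5.5 (0.931) and E6.0 (1.04). Its means in AF and AFX were 15.1 and 6.75. The calls of Efna1 and Efna5 were lost when single samples were left out, among them AF passage 15 (0.86 and 0.39) and AFX passage 15 (1.01 and 0.40). For Efna1 the others were AFX passage 14, E5.0 embryos 2 and 4, E5.5 embryo 2, E6.0 embryos 1 and 3 and FS passages 10, 11 and 16, and for Efna5 E5.0 embryos 1 and 2, E5.5 embryo 3 and E6.0 embryo 3.

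Semaphorins had 7 lower calls and 1 higher call in FS against E5.5, 8 of 19 tested (42.1%), near the 43.8% of all genes. Sema3e, from 3.75, 7.96 and 23.6 CPM in FS, was at 50.9, 44.5 and 32.1 at E5.5, above every FS sample, and changed by -2.07 ± 0.40 (SE, edgeR adjusted p = 0.000549). Sema4d was at 77.2, 62.1 and 92.2, 61.3, 56.3 and 51.1 and 64.6, 53.5 and 67.6 CPM at the 3 stages, above every cultured sample. It changed by -1.27 ± 0.09 (SE, edgeR adjusted p = 7.33e-11) over all and -0.66 ± 0.14 (SE, edgeR adjusted p = 0.000546) in FS against E5.5. Sema4c changed by -0.76 ± 0.18, Sema3f by -0.71 ± 0.18, Sema6a by -0.78 ± 0.25, Sema5a by -0.98 ± 0.30 and Sema7a by -2.08 ± 0.64 (SE). Sema6a lost its call without E5.5 embryo 2 (-0.57), Sema5a without embryo 2 (-0.84) or 3 (-0.76) and Sema7a without embryo 1 (-1.77). The higher call was Sema3a at 2.400 ± 0.96, which was lost without E5.5 embryo 2 or 3 or FS passage 11, 12, 13 or 16 (down to 1.78) and was 6.63 without embryo 1. Over all cultured cells Sema3a (3.57 ± 0.58, SE), Sema3c (2.66 ± 0.45), Sema3b (2.43 ± 0.49) and Sema6d (2.21 ± 0.37) were higher. Sema6d averaged 1.76 CPM in FS, below E5.0 (4.55) and E6.0 (1.89) but above E5.5 (0.781), and 31.7 in AF and 12.7 in AFX. Sema3a was 4.99 without E5.5 embryo 1, and Sema3b 3.65 without E5.0 embryo 2 and 1.55 with the samples as 2 groups.

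Among semaphorin receptors, Plxnd1, which binds Sema3e, was at 8.06, 9.96 and 15.3 CPM in FS, 13.96, 23.2 and 14.2 in AF and 14.7, 11.8 and 12.2 in AFX. In epiblasts it was at 1.47, 1.68 and 1.54, 1.68, 3.43 and 1.31 and 4.86, 4.21 and 5.31 CPM. All cultured samples were above all epiblasts, with a change of 2.39 ± 0.19 (SE, edgeR adjusted p = 3.77e-10) over all and 2.33 ± 0.31 (SE, edgeR adjusted p = 3.2e-06) in FS against E5.5. Its ligand Sema3e stood the other way round in the FS comparison. Plxna2 was at 6.25, 12.7 and 33.6 CPM in FS and 3.92, 3.78 and 2.72 at E5.5, a change of 2.196 ± 0.56 (SE, edgeR adjusted p = 0.00394), with no overlap. Plxnb2 was higher in FS (0.48 ± 0.16, SE) and lost its call without E5.5 embryo 1 (0.43) or 2 (0.42). Plxna1 and Plxnb1 were lower in FS than at E5.5, by -0.43 ± 0.12 and -0.39 ± 0.14 (SE). Plxnb1 lost its call without E5.5 embryo 1 (-0.32) or 2 or FS passage 12 or 16. Over all, Plxna4 (2.11 ± 0.51, SE) and Nrp1 (2.02 ± 0.80) were also higher in cultured cells. In FS Plxna4 and Nrp1 had means of 1.25 and 0.322 CPM, below 1.76 and 1.01 at E5.5, and the AF means were 5.795 and 8.04. Per kilobase of exon, Plxna4 was at 0.0887 CPM in FS and 0.022, 0.125 and 0.018 at the 3 stages, so FS was below E5.5 only. Nrp1 was at 0.0329 CPM per kb in FS and 0.0233, 0.103 and 0.0380 at the 3 stages, so FS was above E5.0 only. Plxna4 was 2.803 without E5.0 embryo 4, and Nrp1 lost its call in several fits, among them without AFX passage 16 (1.34), AF passage 14, E5.0 embryo 1 or 4, E5.5 embryo 2, E6.0 embryo 1 or 3, or FS passage 11, and was 4.14 without E5.5 embryo 1.

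Netrin receptors of the Unc5 family went in opposite directions. Unc5b (ENSMUSG00000020099, chr10:60762593-60831581, minus strand) was at 44.8, 52.3 and 65.8 CPM in FS against 151, 195 and 110.5, 147, 137 and 173 and 127, 161 and 164 CPM at the 3 stages. Every epiblast was above every cultured sample. The change was -1.496 ± 0.17 (SE, edgeR adjusted p = 4.84e-07) in FS against E5.5 and -1.197 ± 0.11 (SE, edgeR adjusted p = 8.62e-09) over all. Unc5a was at 6.35, 9.05 and 11.6 CPM in FS and 1.902, 1.14 and 3.47 at E5.5, with all FS samples higher, a change of 2.02 ± 0.46 (SE, edgeR adjusted p = 0.00126). Ntn4, a netrin of basement membranes, had 4 counts over the E5.5 samples and was at 1.77, 2.05 and 3.45 CPM in FS, and the ratio of 158 counts to 4, scaled to the libraries, was 15.94 (exact 95% interval 6.105 to 59.2, counting error only, and edgeR adjusted p = 0.000259). Its fitted change over all was 3.51 ± 0.47 (SE), with 4.27 without E5.0 embryo 4, and in FS against E5.5 it was 3.84, with 3.23 without E5.5 embryo 3. Ntn1 was higher over all cultured cells (2.04 ± 0.62 (SE, edgeR adjusted p = 0.00944)), from the wide FS range above and 7.97, 13.8 and 10.5, 4.92, 1.37 and 1.31 and 3.41, 7.55 and 1.41 CPM at the 3 stages, which overlap it. Neo1 differed little in level, at 48.5 ± 4.34 CPM in FS and 36.7 ± 9.23 at E5.5 (SD, n = 6 and 3), with a change of 0.40 ± 0.15 (SE) that was lost without E5.5 embryo 1 (0.21) or FS passage 10, 11, 12 or 16. Dcc was not tested: it was at 1.56, 0.125 and 9.34 CPM in AFX and at most 0.601 CPM in any other sample.

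**Figure D4:**
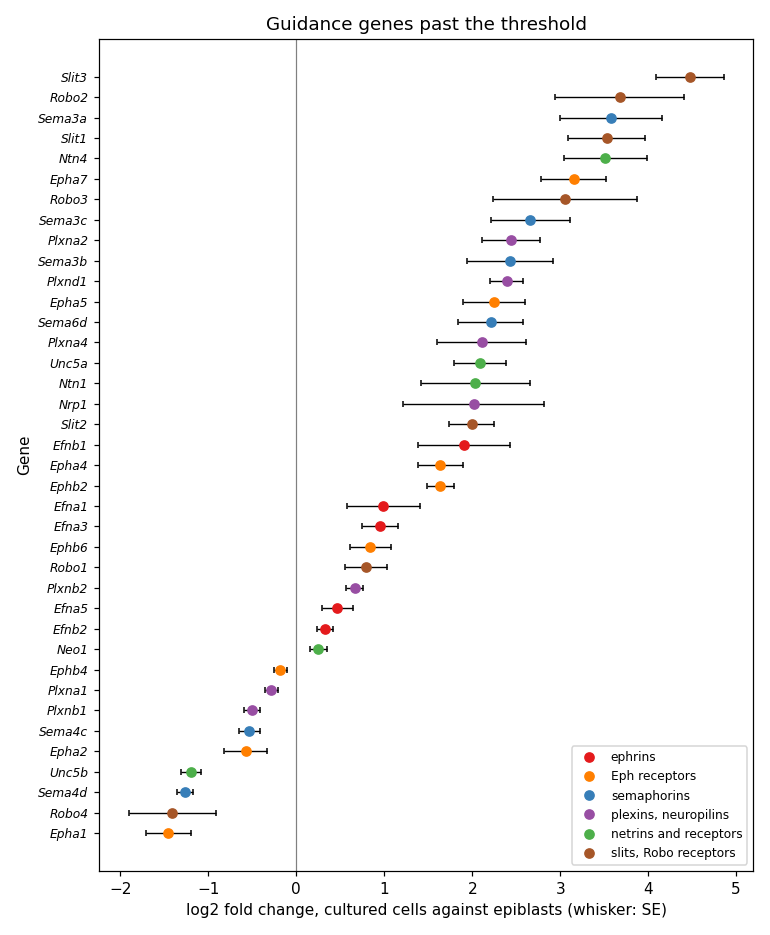
Log2 fold change (horizontal axis) of the 38 guidance genes with an adjusted p under 0.05 in all cultured cells against all epiblasts, 1 gene per row, coloured by family. Points are the fitted changes and whiskers their SE. Slit3 has the highest value at 4.47 and Epha1 the lowest at -1.46.

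Pathway genes outside the 4 families passed in 18 of 48 for FS against E5.5, 15 higher and 3 lower, and in 32 of 48 over all cultured cells, 26 higher and 6 lower. These shares of 37.5% and 66.7% stand beside 43.8% and 61.8% of all genes. Nrcam, an adhesion co-receptor for class 3 semaphorins, was at 65.01 ± 19.7 CPM in FS and 1.42 ± 0.672 at E5.5 (SD, n = 6 and 3), and Dpysl2 at 136 ± 17.04 and 7.098 ± 3.26. Their changes over all were 3.65 ± 0.35 (SE, edgeR adjusted p = 1.2e-07) and 3.55 ± 0.14 (SE, edgeR adjusted p = 1.33e-14). Visceral endoderm genes were lower in FS than at E5.5 in 8 of 10 tested, and Hnf4a, Apob, Afp and Ttr had no count in FS. The epiblast identity genes summed to 1854 to 2757 CPM in FS and 5019 to 5574 at E5.5, with Tdgf1, Utf1, Dnmt3b, Pou5f1 and Otx2 lower and Sox2 higher in FS. Over all cultured cells the same 5 were lower and Fgf5 was higher. Of 9 primitive streak genes tested 5 were higher and 1 was lower, and of 8 fibroblast or feeder genes 5 were higher and 2 lower. Of 10 visceral endoderm genes tested 8 were lower and 1 was higher. The sum over the neural progenitor list, dominated by Nes, was 286 to 394 CPM in FS, 409 to 463 in AF and 389 to 433 in AFX, against 48.0 to 70.5 at E5.0, 74.8 to 103 at E5.5 and 130 to 161 at E6.0. The part of these markers in the differences from the embryo was not tested.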

How the data were processed

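Total RNA was isolated with a PicoPure kit from 1000 cultured cells or a single epiblast, per the labels' protocols. The deposited table holds raw read counts per gene made by the authors, whole numbers for 33861 genes in 21 samples. The submitters' processing notes name Trim Galore, TopHat2 2.1.0, featureCounts 1.5.0 and the mm10 genome. The annotation release, strand setting and order of steps are not given in the sources used here.

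Counts were tested in R 4.3.3 with edgeR 4.0.16 (filterByExpr, TMM scaling, robust two-sided quasi-likelihood F-tests) and Benjamini-Hochberg adjustment over all genes tested (threshold 0.05). Cultured groups (12 samples, FS as 1 group, or split by line for the lines), epiblasts (9) and all 21 samples were fitted in turn. The change of cultured cells against epiblasts is between the means of 3 group means. Levels are TMM-scaled CPM. Each of the 21 possible pairs of replicates (FS taken by line) showed more spread than counting noise (chi-square per degree of freedom 4.84 to 28.97), so none was counted as a repeat. Floors cover counting error only.

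Sample values, in FS as lowest, median and highest, were chosen for members past the threshold with an absolute log2 change of at least 1. The group with the higher mean had to reach 5 CPM, with up to 12 members per direction. Some of them have the change without all sample values, such as Plxna2 in FS against AF and Sema3c in cultured cells against epiblasts. Members outside this rule are given by ranges or where a family would be incomplete. The members, lists, tests and alternatives were chosen with earlier results of these data known. The fits were repeated with DESeq2 size factors, with the Wald test of DESeq2 1.42.0, without a filter, with genes averaging 5 CPM or more, with the compared groups alone, with FS by line, with 2 groups in place of 6, with a replicate block, and leaving out each sample. The fits were also run on simulated counts with a fixed spread and no line, passage or embryo structure. That run therefore does not cover the spread between the samples here. Figures used matplotlib 3.10.9.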

Additional observations from a re-analysis of the deposited data

Results flagged for a closer look

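In the 6 FS samples, 56 guidance genes with a mean of at least 1 CPM were checked for a sample far from the rest (gap to the nearest sample, over the whole range, above Dixon's 95% critical value), and 4 had one. Chance alone marks about 1 in 20 such groups. Epha1 stood at 35.4 CPM in line 1 passage 10, with the other FS samples from 7.88 to 16.3. Sema3c stood at 11.9 CPM in line 2 passage 12, with the others from 1.77 to 4.07. In the same library Ntn4 was at 3.45 CPM, with the others from 1.77 to 2.19. Sema3f stood at 17.8 CPM in line 1 passage 11, with the others from 10.6 to 12.2.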

How the results depend on the processing

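No call changed direction under any alternative. The members called in every alternative that tested them were 15 of 27 for FS against AF, 4 of 9 for FS against AFX, 3 of 8 for AFX against AF, 1 of 2 between the FS lines, 8 of 10 for E6.0 against E5.0, 17 of 30 for FS against E5.5 and 27 of 38 for cultured cells against epiblasts. Counts of members called moved by more than 1.5 times in the cases that follow, with the fits that left out 1 sample given last. FS against AF gave 17 with FS line 1 alone (27 in the fit as described). It also gave 17 with a mean of at least 5 CPM, which tests fewer genes. FS against AFX gave 16 with DESeq2, 4 with FS line 1 alone and 15 with FS line 2 alone (9). AFX against AF gave 13 with DESeq2 (8). Between the FS lines the counts were 6 with DESeq2, 10 with the FS samples alone, 1 with a mean of at least 5 CPM and 13 with no filter (2). For the counts with DESeq2, with 1 FS line and with the FS samples alone the cause was not tested. Calls lost in fits of the compared groups alone were Efnb1, Epha1, Epha10 and Plxnd1 for FS against AF, Ephb2 for FS against AFX, Unc5b and Plxna3 for AFX against AF, and Neo1 and Sema3a for FS against E5.5. With FS line 2 alone Epha10, Plxna3 and Sema6b were lost against AF, Efna5 and Sema4d against AFX, and Epha2, Neo1, Plxna1 and Sema3a against E5.5. With FS line 1 alone Efna5, Ephb2, Nrp2, Sema3f and Sema4d were lost against AFX, and Efna3, Epha2, Neo1, Plxnb1, Sema3a, Sema3f, Sema5a, Sema6a and Sema7a against E5.5. With cultured cells and epiblasts as 2 groups Efna1, Efna5, Efnb1, Efnb2, Epha2, Ephb4, Ephb6, Neo1 and Robo1 were lost. Leaving out each sample in turn gave 19 to 30 for FS against AF, 4 to 12 for FS against AFX, 3 to 9 for AFX against AF, 1 to 4 between lines, 9 to 12 for E6.0 against E5.0, 23 to 30 for FS against E5.5 and 34 to 39 for cultured cells against epiblasts. The count moved by more than 1.5 times in 1 of 9 such fits for FS against AFX, 4 of 6 for AFX against AF and 5 of 6 between lines.

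A replicate block of passage number gave 10 members for AFX against AF (6 shared with the 8, Unc5b and Plxna3 being lost), and of embryo number 9 for E6.0 against E5.0 (8 shared with the 10, Sema3b and Sema4g being lost). The AF and AFX numbers are passages and the embryo numbers name embryos, and no label ties a number to a shared batch or day. Deviations from the group means of same-numbered AF and AFX samples had correlations of -0.204, -0.152 and 0.297, with AF passages 14 and 15 closest to another AFX passage, and those of E5.0 and E6.0 embryos 0.0403 and -0.0873. Libraries of 5827093 to 15916800 counts set the floor at 0.171 to 0.561 CPM, so members below it could not be compared. Cultured replicates are passages of few lines, and line and medium differ together between FS and the other cultured groups.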

Other observations

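Several guidance genes differed widely between samples of 1 group. Robo3, a Robo receptor that does not bind slits in mammals, was at 2.504, 4.31 and 8.84 CPM in FS line 1 and 0.481, 0.417 and 0.686 in line 2, and at 0.989, 6.66 and 0.748 in AF and 4.53, 22.2 and 44.5 in AFX. The lines did not overlap, but the difference did not pass (-3.26 ± 1.08 (SE, edgeR adjusted p = 0.142)). Ntn1 was at 35.2, 16.04 and 3.25 CPM in line 1 and 0.802, 1.77 and 3.83 in line 2, with overlapping ranges (-3.01 ± 0.88 (SE, edgeR adjusted p = 0.0988)). In AFX passage 16 Dcc (9.34 CPM), Robo3, Sema3a (9.34 CPM) and Nrp1 (5.58 CPM) all had their highest value of the group. AF passage 15 had the lowest Epha1 (19.2 CPM), Epha2 (79.1 CPM) and Sema6a (98.3 CPM) of its group and the highest Robo1 (100.2 CPM), Sema3b (22.03 CPM) and Sema3c (54.9 CPM). Its difference was not confined to guidance genes. Over the whole library its chi-square per degree of freedom was 22.3 against AF passage 14 and 29.0 against passage 16. Between AF passages 14 and 16 it was 4.84.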
